A study of Caenorhabditis elegans with 22 samples.

Results

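The genes described here are those whose RNA was more abundant in embryos kept at 500 mM NaCl than at 50 mM NaCl in wild type and in both *ssu-1* and *daf-16* mutants. SSU-1 is a sulfotransferase and DAF-16 is the FOXO transcription factor at the end of the insulin-like pathway. The members were chosen by measured values. A gene's change is the mean FPKM at 500 mM divided by the mean FPKM at 50 mM plus 1, where FPKM counts fragments relative to transcript length and library size, and values at 50 mM are given before those at 500 mM throughout. A member's change exceeded 2 in each of 4 comparisons (wild type of experiments 1 and 2, and both mutants), with a mutant change of at least 0.5 of the wild-type change. The genes *gpdh-1*, *gpdh-2*, *pgph-2* and *acdh-2* also met this rule and were left out. Of 45460 genes in the table, 21977 were above 0 in any library and 56 were members. Wild type passed a change of 2 in both experiments for 202 genes. Of these, 59 kept less than 0.5 of the change in both mutants and 45 kept less in one of them. A further 38 kept at least 0.5 of it in both mutants with a mutant change of 2 or less, and the other 60 are the members and the 4 genes left out.

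The data were RNA-seq of whole *C. elegans* embryos after 3 h on plates with 50 mM or 500 mM NaCl. Experiment 1 compared the Bristol strain N2 (wild type) with *ssu-1* mutants in 10 libraries, 2 of each genotype at 50 mM and 3 of each at 500 mM. Experiment 2 compared N2 with *daf-16* mutants in 12 libraries, 3 for each genotype at each concentration. For the *ssu-1* libraries the labels name the alleles fc73, n5883, tm1117, gk266317, gk747222, gk876992 and gk319712 together with zIs356, a transgene that drives DAF-16 fused to GFP from the *daf-16* promoter with the *rol-6* marker. For the *daf-16* libraries they name m26 and mu86. The study's methods give fc73 and m26 for RNA-seq, and whether the *ssu-1* embryos of these libraries carried the transgene was not tested. Nothing in the labels says that the replicates came from separate cultures, so the spread between them may be technical. Whole embryos hold many cell types, and fewer cells of a type and less RNA per cell cannot be told apart.

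Embryos in hypertonic medium lose water and respond by making organic osmolytes, of which glycerol is the main one in *C. elegans*. Glycerol is made from a glycolytic intermediate by a glycerol-3-phosphate dehydrogenase (*gpdh-1* and *gpdh-2*) and a phosphatase, to which the *pgph* genes are related. Inositol is a second compatible osmolyte in animals and enters cells through transporters of the HMIT type. DAF-16 moves to the nucleus when insulin-like signaling is low and activates genes of stress resistance and fat metabolism.

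The targeted genes and the depth were checked first. The *ssu-1* gene (Y113G7A.11) was between 1.78 and 2.99 FPKM in the N2 libraries of experiment 1 and between 0.37 and 1.74 in the *ssu-1* libraries, with no overlap at either concentration. The *daf-16* gene (R13H8.1) was between 149 and 156 FPKM in the *daf-16* libraries at 50 mM, above the 74.0 to 91.2 of N2, and the genotypes overlapped at 500 mM. In experiment 1 at 50 mM it was between 114 and 120 FPKM in the *ssu-1* libraries and between 123 and 124 in N2. At 500 mM it was between 105.5 and 115 FPKM in the *ssu-1* libraries and between 157 and 163 in N2. FPKM over a whole gene does not show what an allele does to the protein. The depth of each library relative to N2 50 mM replicate 1, from the spacing of low FPKM values, ran from 0.693 to 1.33. Muscle genes and embryo lineage genes were present throughout (the lineage list summed to at least 218 FPKM), and the yolk and sperm lists summed to at most 2.7 and 8.86 FPKM.

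In the values of the members, 1 library of experiment 2 differed from the others of its group. In N2 50 mM replicate 4 of experiment 2, 33 of the 56 members were higher than in both other N2 50 mM libraries of that experiment, and 8 were lower. The share over all genes is not given, so a shift of the whole library cannot be told from one of the members. The median ratio of replicate 4 to the mean of the other 2 was 1.43 over all members and 2.53 over the F-box and SKR members. Its maternal list, 10 genes whose RNA the mother loads into the egg (*pie-1*, *mex-3*, *mex-5*, *mex-6*, *oma-1*, *oma-2*, *glp-1*, *puf-3*, *egg-1* and *cbd-1*), summed to 88.8 FPKM against 37.9 and 51.2 in the other 2. Replicates 3 and 4 also carry library numbers of another series than the rest of experiment 2. Values that rest on these libraries are therefore given with and without them below, and their part in the results was not tested beyond that. All 56 members still met the rule without replicate 4, and also without replicates 3 and 4, which leaves replicate 5 alone in its group. On log2 values, r was 0.980 between replicates 3 and 4, 0.979 between 3 and 5 and 0.972 between 4 and 5. Other libraries also differed from their groups. The F-box and SKR sum was 210 FPKM in *daf-16* 500 mM replicate 2, against 330 and 299. It was 244 FPKM in N2 500 mM replicate 1 of experiment 1, against 133 and 167.

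In experiment 1 the *ssu-1* 50 mM libraries differed. Replicate 2 was higher than replicate 1 for 47 of 56 members, with a median ratio of 1.40, and for all 11 F-box and SKR members, with a median ratio of 2.05. The share over all genes is not given for these counts either. Without replicate 1, 37 of the 56 members met the rule, which included all 4 osmolyte and inositol members, all 8 metabolic enzymes, 6 of 9 regulators and membrane proteins, 17 of 24 genes without a functional group and 2 of 11 F-box and SKR members. Without replicate 2, 72 genes met it, the 56 members among them. The rule's call on the F-box members in *ssu-1* mutants thus rested on that library.

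The members were grouped after their values were seen. Of the 56, 36 had a gene symbol in RefSeq and 20 had the sequence name alone, 54 were protein-coding, *tts-1* is a non-coding RNA and Y67H2A.9 is a pseudogene. The groups were 4 osmolyte and inositol genes, 8 metabolic enzymes, 9 regulators, peptides and membrane proteins, 11 F-box and SKR genes, and 24 genes without a functional group. Members lay on every chromosome, 5 on I, 12 on II, 7 on III, 8 on IV, 12 on V and 12 on X. The share of members was above that of the genes tested on X (21.4% against 15%) and below it on I (8.93% against 16%).

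The rule itself fixed that every member passed a change of 2, and only the sizes are described. Over the 56 members the median change was 2.69 in N2 of experiment 1 (2.02 to 9.56) and 2.67 in *ssu-1* mutants (2.01 to 14.8). It was 4.02 in N2 of experiment 2 (2.02 to 22.4) and 6.41 in *daf-16* mutants (2.04 to 26.2). Of all genes tested, 2.07% passed a change of 2 in N2 of experiment 1, 1.08% in *ssu-1* mutants, 6.9% in N2 of experiment 2 and 11.2% in *daf-16* mutants. The median change over all genes was 0.904, 0.898, 0.933 and 0.888 in the same order. Every 500 mM library lay above every 50 mM library for all 56 members in N2 of experiment 1, in *ssu-1* and in *daf-16* mutants, and for 54 in N2 of experiment 2, the exceptions being *skr-8* and R11A5.3. That separation held for 33.7% of all genes tested in N2 of experiment 1, 30.4% in *ssu-1* mutants, 36.6% in N2 of experiment 2 and 39.5% in *daf-16* mutants, and nothing is read from it, since the rule used these contrasts.

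**Figure D1:**
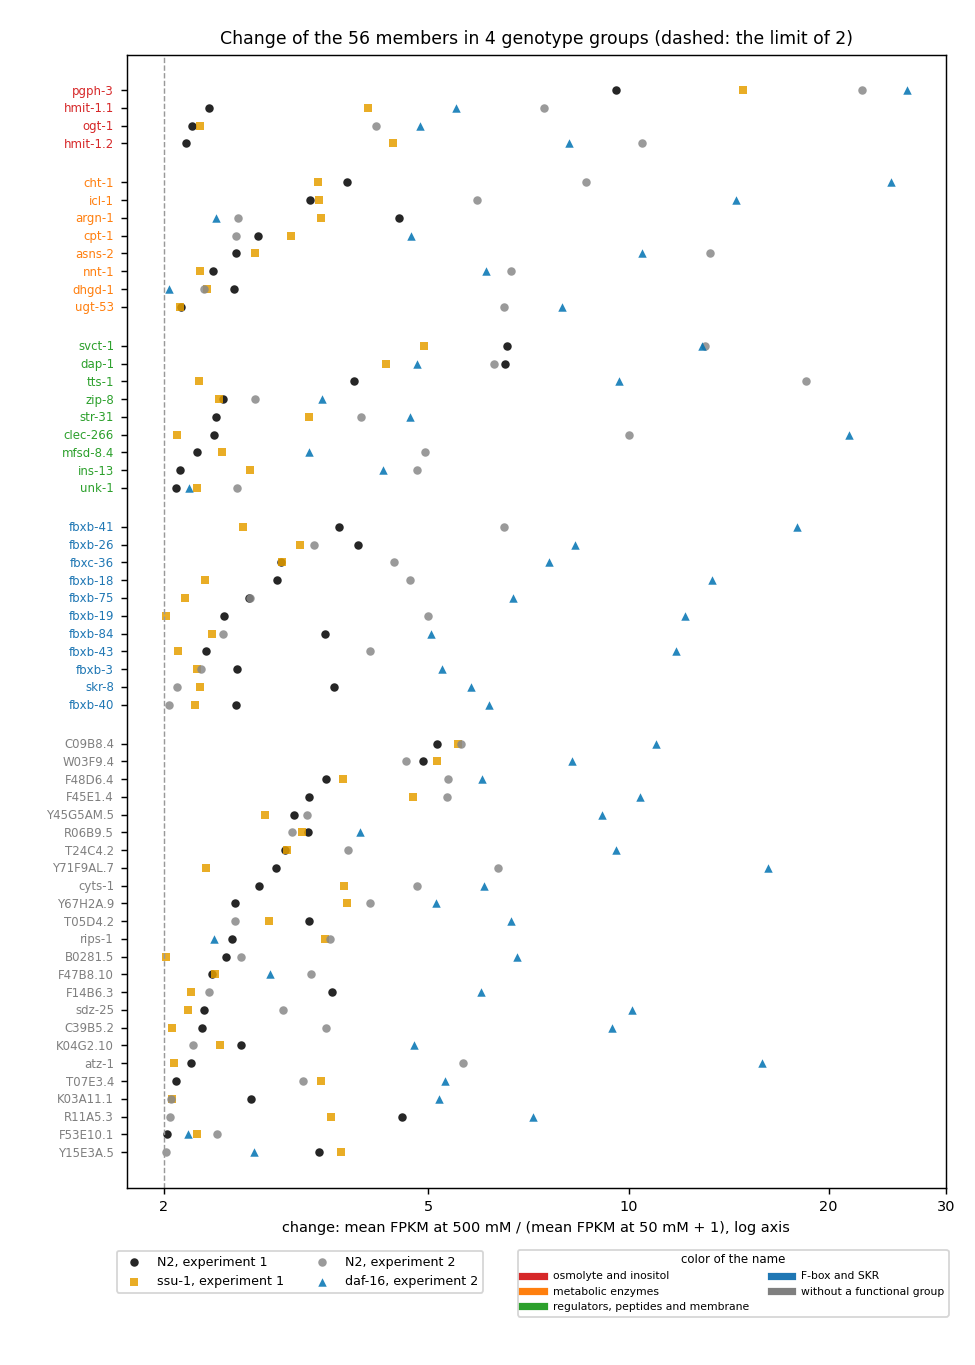
Change of each member on a log axis (mean FPKM at 500 mM over mean FPKM at 50 mM plus 1), with 1 point for each of N2 and *ssu-1* in experiment 1 and N2 and *daf-16* in experiment 2, and names colored by group. The *daf-16* points of the F-box and SKR genes lie right of their N2 points, and *pgph-3* has the highest N2 and *daf-16* changes, 22.4 and 26.2 in experiment 2.

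The osmolyte gene *pgph-3* had the largest change of any member in all 4 comparisons. The gene *pgph-3* (C53A3.2), which lies next to *pgph-2* with no protein-coding gene between them, had a change of 9.56 and 14.8 in N2 and *ssu-1* mutants. Its changes in N2 and *daf-16* mutants of experiment 2 were 22.4 and 26.2. In experiment 1, *pgph-3* was at 32.01 and 25.6 FPKM at 50 mM and 237, 342 and 276 FPKM at 500 mM in N2, and at 21.7 and 17.4 and then 293, 291 and 332 in *ssu-1* mutants. In experiment 2, *pgph-3* was at 2.51, 4.06 and 4.08 FPKM and then 99.1, 104 and 103 FPKM in N2, and at 3.42, 3.43 and 2.93 and then 105, 134 and 96.7 in *daf-16* mutants. The mutant libraries overlapped those of N2 at 500 mM in both experiments, and at 50 mM the *ssu-1* libraries were below N2. Of the left-out genes of the same pathway, *gpdh-1* and *pgph-2* had larger changes. The change of *gpdh-1* was 38.7, 63.2, 37.8 and 40.8 in N2 of experiment 1, *ssu-1*, N2 of experiment 2 and *daf-16*. For *gpdh-2* it was 4.09, 5.08, 2.11 and 3.36, and for *pgph-2* it was 15.3, 26.6, 23.4 and 34.5. Of 12 genes tested on a list of glycerol and trehalose metabolism, *gpdh-1*, *gpdh-2*, *pgph-2* and *pgph-3* alone passed a change of 2, in each of the 4 comparisons. Without N2 50 mM replicate 4 the change of *gpdh-2* in N2 of experiment 2 was 1.98. The list's medians were 1.1, 1.2, 1.2 and 1.02.

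The neighboring genes *hmit-1.1* and *hmit-1.2* encode H+/myo-inositol cotransporters. In experiment 1, *hmit-1.1* was at 18.2 and 14.96 FPKM at 50 mM and 39.0, 37.8 and 46.5 FPKM at 500 mM in N2, and at 8.26 and 10.18 and then 42.9, 40.7 and 40.7 in *ssu-1* mutants. In experiment 2, *hmit-1.1* was at 5.82, 9.41 and 9.32 and then 74.3, 65.0 and 66.2 FPKM in N2, and at 11.99, 11.4 and 10.93 and then 65.4, 72.3 and 67.8 in *daf-16* mutants. Levels of *hmit-1.1* at 500 mM overlapped between genotypes. At 50 mM the *ssu-1* libraries were lower than N2 and the *daf-16* libraries higher, and the change was 4.06 in *ssu-1* mutants and 2.34 in N2. In experiment 1, *hmit-1.2* was at 11.5 and 7.39 and then 22.3, 18.1 and 27.1 FPKM in N2, and at 4.62 and 6.76 and then 33.1, 25.8 and 29.8 in *ssu-1* mutants. In experiment 2, *hmit-1.2* was at 3.53, 4.79 and 4.75 and then 58.4, 55.8 and 54.3 FPKM in N2, and at 4.33, 5.93 and 5.87 and then 48.0, 53.5 and 54.2 in *daf-16* mutants. Its *ssu-1* change was 2.05 times that of N2, the largest such ratio of any member, and its *daf-16* change was 0.777 of that of N2. The third gene of the type, *hmit-1.3*, had changes of 1.005, 0.987, 1.1 and 0.975 and was not a member. Reads of the *hmit-1.1* and *hmit-1.2* pair, and of the *pgph* pair, could have been split in counting, as the genes are alike.

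The gene *ogt-1* (K04G7.3) encodes the single O-GlcNAc transferase, which attaches N-acetylglucosamine to intracellular proteins. In experiment 1, *ogt-1* was at 104 and 101 FPKM and then 239, 220.1 and 223 FPKM in N2, and at 93.4 and 102 and then 223, 213 and 235 in *ssu-1* mutants. In experiment 2, *ogt-1* was at 68.2, 83.8 and 89.7 FPKM and then 352, 344 and 323 FPKM in N2, and at 71.7, 76.5 and 74.96 and then 338, 384 and 377 in *daf-16* mutants. Its changes were 2.20, 2.27, 4.16 and 4.86, and the genotypes overlapped at each concentration. The gene *oga-1*, whose enzyme removes the sugar, had changes of 1.18, 1.13, 2.97 and 2.61. Of the 6 hexosamine pathway genes, *ogt-1* alone passed a change of 2 in experiment 1, and *ogt-1* and *oga-1* alone did in experiment 2.

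**Figure D2:**
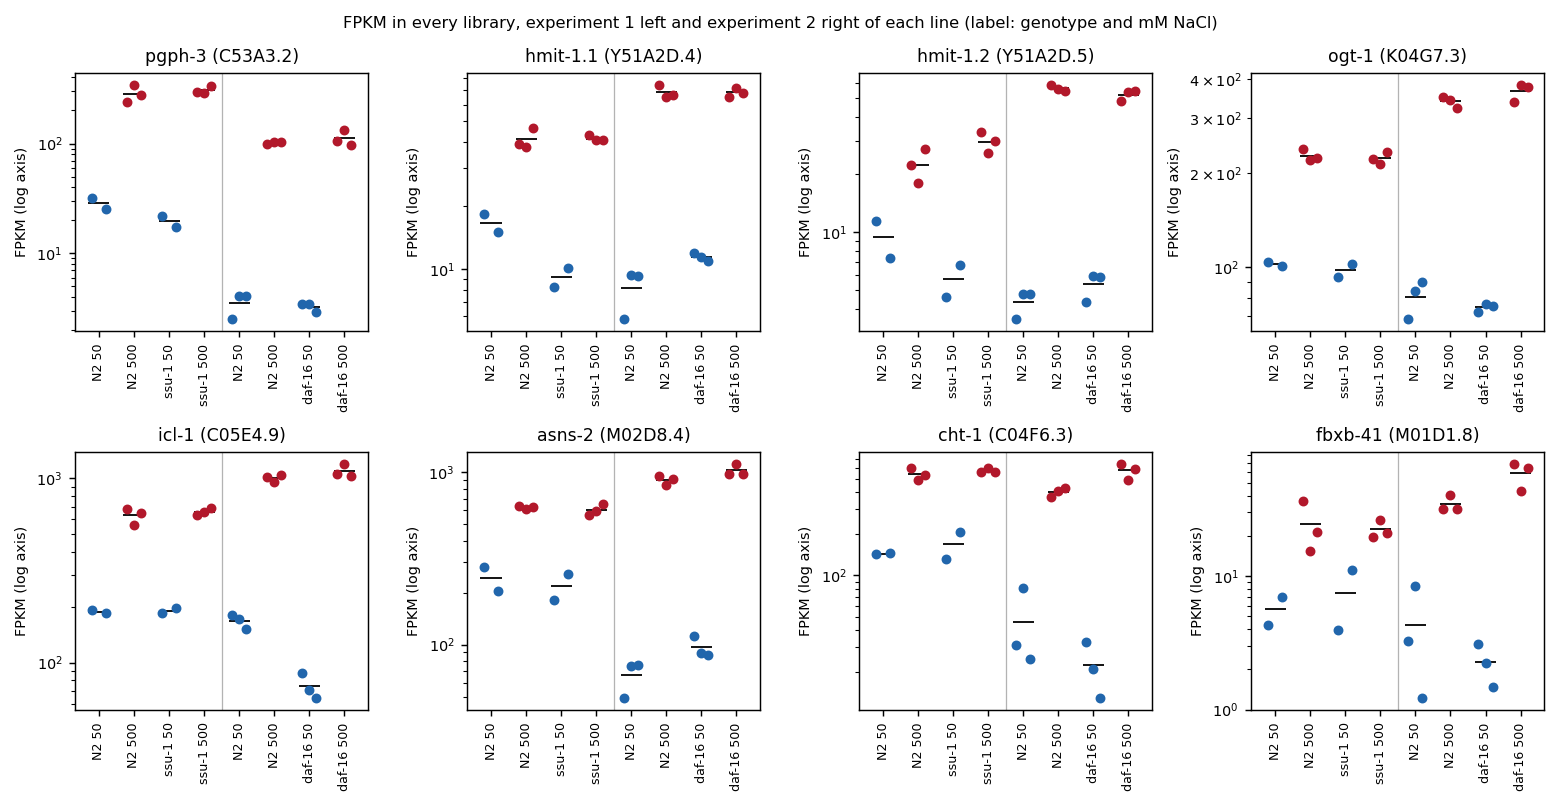
FPKM on a log axis in every library for *pgph-3*, *hmit-1.1*, *hmit-1.2*, *ogt-1*, *icl-1*, *asns-2*, *cht-1* and *fbxb-41*, with 50 mM in blue, 500 mM in red and a bar at each group's mean. All 500 mM libraries lie above all 50 mM libraries of their group for these 8 genes, and *icl-1* at 50 mM is lower in *daf-16* mutants (64.2 to 88.1 FPKM) than in N2 (153 to 181).

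Among the metabolic enzymes, *icl-1* (C05E4.9) encodes the bifunctional enzyme of the glyoxylate cycle, which lets fat be used to make sugar. In experiment 1, *icl-1* was at 194 and 185 FPKM and then 684, 559 and 651 FPKM in N2, and at 186 and 197 and then 628, 658 and 689 in *ssu-1* mutants. In experiment 2, *icl-1* was at 181, 171 and 153 FPKM and then 1011, 954 and 1040.4 FPKM in N2, and at 88.1, 71.2 and 64.2 and then 1057, 1195 and 1032 in *daf-16* mutants. At 50 mM every *daf-16* library was below every N2 library, and at 500 mM they overlapped. Its *daf-16* change was 14.5, against 5.92 in N2. That ratio of 2.45 was 2.43 without N2 50 mM replicate 4. In *cpt-1* (Y46G5A.17), which encodes a carnitine palmitoyltransferase that carries fatty acids into mitochondria, the difference between genotypes lay at 500 mM. In experiment 1, *cpt-1* was at 129 and 121 FPKM and then 385, 307 and 355 FPKM in N2, and at 119.7 and 137 and then 383, 398 and 421 in *ssu-1* mutants. In experiment 2, *cpt-1* was at 218, 206 and 178 FPKM and then 517, 516 and 520.0 FPKM in N2, and at 183, 166 and 180.2 and then 817, 877 and 809.8 in *daf-16* mutants. At 50 mM the genotypes overlapped, and at 500 mM every *daf-16* library was above every N2 library. Of 11 genes tested on the list of the glyoxylate cycle and fatty acid shuttle, 5, 6, 7 and 8 passed a change of 2 in the 4 comparisons, with *icl-1*, *cpt-1* and *nnt-1* the members. The left-out gene *acdh-2*, an acyl-CoA dehydrogenase, had changes of 11.5, 15.97, 33.2 and 40.97.

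The gene *asns-2* (M02D8.4) encodes an asparagine synthetase. In experiment 1, *asns-2* was at 280.5 and 205 FPKM and then 637, 611 and 629 FPKM in N2, and at 180.1 and 257 and then 562, 597 and 652 in *ssu-1* mutants. In experiment 2, *asns-2* was at 48.9, 75.6 and 76.3 FPKM and then 953, 838 and 914 FPKM in N2, and at 113, 89.2 and 87.3 and then 971, 1115 and 978 in *daf-16* mutants. The *daf-16* libraries were all above N2 at both concentrations. It was the only one of 4 tested genes of asparagine metabolism and the amino acid response to pass a change of 2, in all 4 comparisons. The gene *cht-1* (C04F6.3) encodes a chitinase, and chitin forms a layer of the eggshell. In experiment 1, *cht-1* was at 142 and 144 FPKM and then 604, 492 and 534 FPKM in N2, and at 130.5 and 205 and then 564, 597 and 564 in *ssu-1* mutants. In experiment 2, *cht-1* was at 30.9, 81.2 and 24.8 FPKM and then 367, 410.5 and 428 FPKM in N2, and at 32.6, 21.02 and 12.8 and then 642, 495 and 589 in *daf-16* mutants. The *daf-16* libraries overlapped N2 at 50 mM and were above it at 500 mM. Its *daf-16* change of 24.8 was 2.88 times that of N2, and 1.78 times without N2 50 mM replicate 4, where *cht-1* was highest. Of the 5 chitin genes tested, *cht-1* alone passed in experiment 1. The remaining enzymes were *nnt-1* (nicotinamide nucleotide transhydrogenase), *argn-1* (arginase), *dhgd-1* (a dehydrogenase of D-2-hydroxyglutarate) and *ugt-53* (a UDP-glucuronosyltransferase). Their changes ran from 2.12 to 4.51 in N2 of experiment 1 and from 2.04 to 7.93 in *daf-16* mutants. For these 4 the *daf-16* change was between 0.886 and 1.22 of that of N2.

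The regulators, peptides and membrane proteins had the lowest median ratio of the *daf-16* change to the N2 change of the 5 groups, 0.888. Ranked by the smaller of the 2 N2 changes, *svct-1*, named as a transporter of the vitamin C type, and *dap-1* came first, while in N2 of experiment 2 alone *tts-1* had the largest change of the group, 18.5. In experiment 1, *svct-1* was at 0.4 and 0.18 FPKM and then 9.16, 8.23 and 7.98 FPKM in N2, and at 0.81 and 0.23 and then 7.32, 7.19 and 7.93 in *ssu-1* mutants. In experiment 2, *svct-1* was at 1.46, 0.56 and 0.64 FPKM and then 27.9, 21.7 and 24.1 FPKM in N2, and at 0.53, 0.65 and 0.52 and then 19.1, 20.5 and 20.9 in *daf-16* mutants. The mutant libraries were below N2 at 500 mM in both experiments. At 50 mM the FPKM was at most 1.46 in every library, so the change of *svct-1* depends on the 1 added to the lower term. In experiment 1, *dap-1* was at 79.4 and 73.9 FPKM and then 505, 443 and 571 FPKM in N2, and at 62.5 and 86.1 and then 352, 310.3 and 313 in *ssu-1* mutants. In experiment 2, *dap-1* was at 339.6, 244 and 240.2 FPKM and then 1849, 1841 and 1495 FPKM in N2, and at 157, 147 and 165 and then 701, 757 and 811 in *daf-16* mutants. The mean level of *dap-1* at 500 mM in *ssu-1* mutants was 0.642 of that of N2, and in *daf-16* mutants it was 0.438 of it, without overlap, and in *daf-16* mutants the 50 mM libraries were also all below N2.

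The non-coding RNA *tts-1* (F09E10.11), known to associate with ribosomes in *C. elegans*, kept the least of its N2 change in both mutants. In experiment 1, *tts-1* was at 31.4 and 10.6 FPKM and then 96.7, 71.7 and 86.8 FPKM in N2, and at 11.2 and 19.1 and then 40.4, 30.9 and 37.98 in *ssu-1* mutants. In experiment 2, *tts-1* was at 53.7, 30.04 and 41.3 FPKM and then 932, 748 and 684 FPKM in N2, and at 20.3, 19.6 and 26.7 and then 188, 259 and 226 in *daf-16* mutants. At 500 mM every mutant library was below every N2 library in both experiments. The *ssu-1* change was 0.584 and the *daf-16* change 0.524 of that of N2, the smallest of any member in each mutant and close to the limit of 0.5. The next smallest *daf-16* ratio, 0.668, was that of *mfsd-8.4*, a gene of the major facilitator family. In experiment 1, *mfsd-8.4* was at 0.2 and 0.09 FPKM and then 2.21, 2.36 and 3.14 FPKM in N2, and at 0.28 and 0.17 and then 3.34, 2.58 and 3.07 in *ssu-1* mutants. In experiment 2, *mfsd-8.4* was at 0.7, 0.49 and 1.25 FPKM and then 9.78, 9.07 and 8.05 FPKM in N2, and at 0.63, 0.48 and 0.7 and then 5.14, 4.95 and 5.79 in *daf-16* mutants. At 500 mM the *daf-16* libraries were below N2 and the *ssu-1* libraries overlapped it.

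The bZIP transcription factor *zip-8* (F23F12.9) was the member of a list of 11 tested bZIP genes. In experiment 1, *zip-8* was at 51.7 and 67.2 FPKM and then 164, 127 and 154 FPKM in N2, and at 49.7 and 86.2 and then 160.2, 177 and 164 in *ssu-1* mutants. In experiment 2, *zip-8* was at 25.5, 41.0 and 22.6 FPKM and then 76.4, 93.3 and 82.7 FPKM in N2, and at 33.3, 32.5 and 27.6 and then 136, 70.6 and 127 in *daf-16* mutants. The genotypes overlapped in each comparison. The remaining members of the group were *unk-1*, the insulin-like peptide gene *ins-13*, the chemoreceptor gene *str-31* and the C-type lectin gene *clec-266*. The gene *ins-13*, which lies next to *acdh-2*, had no library above 6.66 FPKM. The gene *clec-266* was among the most abundant members, with 1226.6 to 1347 FPKM at 500 mM in N2 of experiment 2 and 1620.0 to 1867 in *daf-16* mutants. Its *daf-16* change of 21.4 was 2.14 times that of N2, and 1.46 times without N2 50 mM replicate 4.

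The F-box and SKR members encode parts of SCF ubiquitin ligases, in which an F-box protein binds the substrate and an SKP1-related (SKR) protein links it to the cullin. They were 9 *fbxb* genes, *fbxc-36* and *skr-8*. Their median changes were 2.96 in N2 and 2.27 in *ssu-1* mutants in experiment 1, and 3.37 in N2 and 7.59 in *daf-16* mutants in experiment 2. The *ssu-1* change was above that of N2 for 1 of 11, against 48.8% of all genes tested in both experiments. The *daf-16* change was above it for 11 of 11, against 47.8%. The rule bounded both ratios from below and the group was formed after the values were seen, so nothing is read from these counts. The *ssu-1* 50 mM libraries also differed for these genes, as described above. The gene *fbxb-41* (M01D1.8) had the largest change of the group when each gene was ranked by the smaller of its 2 N2 changes. In experiment 1, *fbxb-41* was at 4.32 and 6.98 FPKM and then 36.3, 15.3 and 21.5 FPKM in N2, and at 3.93 and 11.1 and then 19.8, 26.4 and 21.02 in *ssu-1* mutants. In experiment 2, *fbxb-41* was at 3.25, 8.5 and 1.22 FPKM and then 31.6, 40.4 and 31.6 FPKM in N2, and at 3.1, 2.24 and 1.47 and then 69.1, 43.1 and 64.2 in *daf-16* mutants. The *daf-16* libraries overlapped N2 at 50 mM and were above it at 500 mM.

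The gene *fbxb-40* (M01D1.9), with 2 protein-coding genes between it and *fbxb-41*, had the third-largest *daf-16* ratio of any member, 3.03. In experiment 1, *fbxb-40* was at 2.54 and 3.63 FPKM and then 13.7, 7.41 and 10.4 FPKM in N2, and at 3.01 and 5.35 and then 10.7, 12.51 and 11.4 in *ssu-1* mutants. In experiment 2, *fbxb-40* was at 1.19, 3.77 and 1.13 FPKM and then 5.37, 8.85 and 4.3 FPKM in N2, and at 0.72, 0.87 and 0.26 and then 13.9, 5.82 and 10.23 in *daf-16* mutants. At 50 mM the *daf-16* libraries were below N2, and at 500 mM they overlapped. Without N2 50 mM replicate 4 the ratio was 2.16. In experiment 1, *skr-8* (C52D10.9) was at 6.44 and 12.52 FPKM and then 56.5, 25.8 and 31.1 FPKM in N2, and at 10.6 and 21.8 and then 34.9, 41.7 and 40.4 in *ssu-1* mutants. In experiment 2, *skr-8* was at 8.47, 24.2 and 6.2 FPKM and then 21.6, 36.1 and 30.04 FPKM in N2, and at 6.67, 5.25 and 5.9 and then 55.9, 22.1 and 42.6 in *daf-16* mutants. Its N2 libraries at 50 and 500 mM overlapped in experiment 2 through replicate 4, and its *ssu-1* ratio of 0.629 was the third smallest. Members of the family lie together: *fbxb-18* and *fbxb-19* are adjacent and *fbxb-26* has 1 gene between it and *fbxb-18*, and reads could have been split between alike copies.

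Most of these members belong to the large *fbxb* family, whose values are given beside those of related families and the maternal list. Of 88 *fbxb* genes tested, 23, 11, 28 and 57 passed a change of 2 in N2 of experiment 1, *ssu-1*, N2 of experiment 2 and *daf-16*. The *daf-16* change was above that of N2 for 86 of the 88, and for 85 without N2 50 mM replicate 4, with a median ratio of 1.98 and 1.54. In the same 4 comparisons, 4, 4, 8 and 12 of 37 *fbxc* genes and 7, 1, 4 and 11 of 19 *skr* genes passed. Of 100 *fbxa* genes, a family of F-box genes with no member, 1, 1, 6 and 7 passed. The *daf-16* change was above that of N2 for 29 of the 37 *fbxc*, 14 of the 19 *skr* and 41 of the 100 *fbxa* genes. Of the 10 maternal genes, 3, 0, 1 and 7 passed a change of 2, and without N2 50 mM replicate 4 the count in N2 of experiment 2 was 6 in place of 1. The *daf-16* change was above that of N2 for 10 of the 10 maternal genes with and without that library, and the *ssu-1* change for 0. The summed maternal FPKM in experiment 2 was 101.7 to 108 at 500 mM in N2 and 144 to 253 in *daf-16* mutants, and 49.3 to 61.6 at 50 mM in *daf-16* mutants. In experiment 1 it was 71.7 to 91.6 at 50 mM and 95.97 to 178 at 500 mM in N2, and 93.7 to 103.6 and then 96.6 to 118 in *ssu-1* mutants. The 8 late embryo muscle genes summed to 5812 to 7478 FPKM at 50 mM and 3975 to 4414 at 500 mM in N2 of experiment 2, and to 6236 to 6283 and then 3223 to 3790 in *daf-16* mutants. In experiment 1 they summed to 2829 to 3363 and then 2258 to 2760 FPKM in N2, and to 2365 to 2651 and then 2402 to 2682 in *ssu-1* mutants. The part of embryo age or maternal RNA in the values of the F-box members was not tested.

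**Figure D3:**
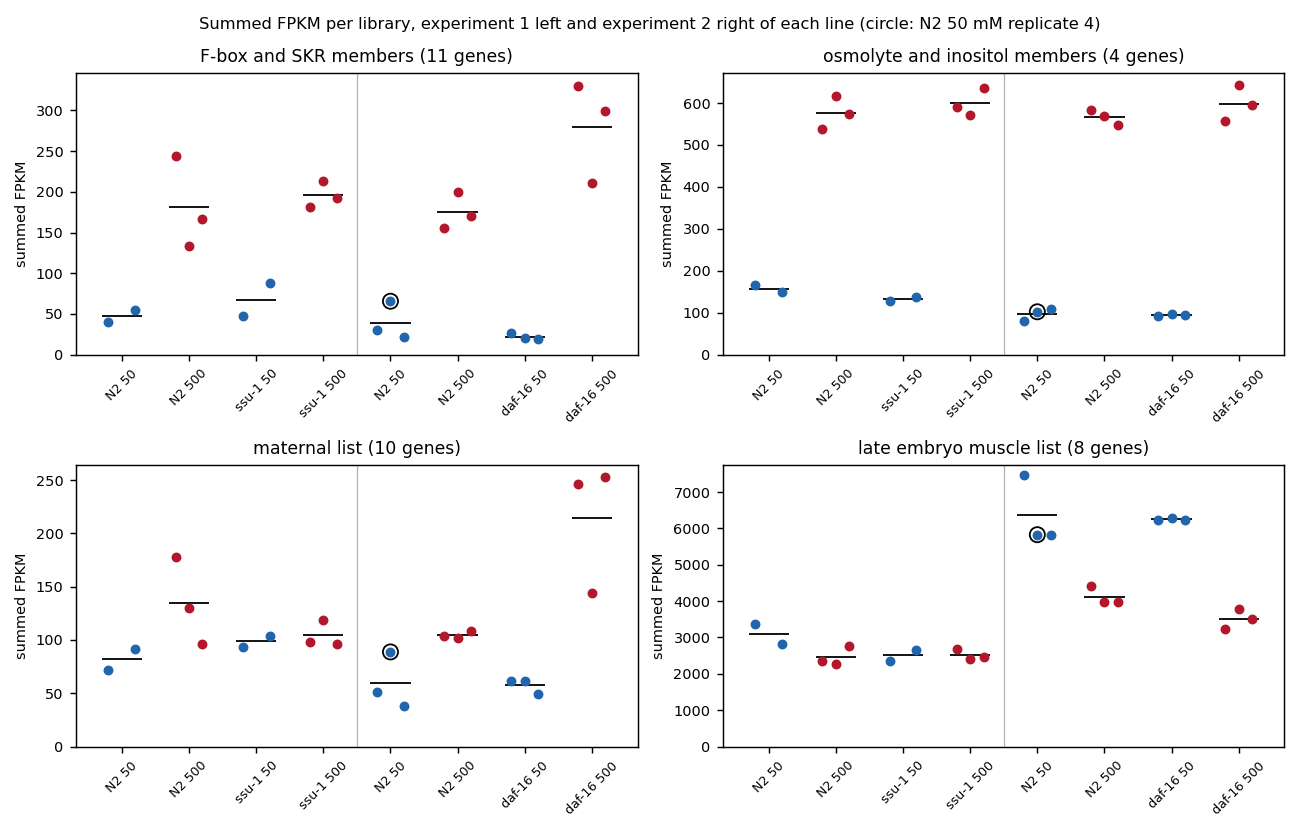
Summed FPKM of every library for the 11 F-box and SKR members, the 4 osmolyte and inositol members, the 10 maternal genes and 8 late embryo muscle genes, with 50 mM in blue, 500 mM in red, group means as bars and N2 50 mM replicate 4 circled. The mean F-box and maternal sums are highest in *daf-16* mutants at 500 mM, and the circled library is the highest of its group in both, where the osmolyte sum lies between those of the other 2.

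The 24 members without a functional group had a median change of 2.87 and 2.97 in N2 and *ssu-1* mutants of experiment 1, and of 3.31 and 6.35 in N2 and *daf-16* mutants of experiment 2. Ranked by the smaller of the 2 N2 changes, C09B8.4 and W03F9.4 came first, while in N2 of experiment 2 alone Y71F9AL.7 had the largest change of the group, 6.36. In experiment 1, C09B8.4 was at 1.37 and 1.18 FPKM and then 16.3, 6.88 and 11.98 FPKM in N2, and at 1.11 and 2.71 and then 13.8, 17.1 and 17.4 in *ssu-1* mutants. In experiment 2, C09B8.4 was at 1.63, 3.26 and 1.24 FPKM and then 11.3, 22.9 and 17.04 FPKM in N2, and at 1.19, 0.63 and 0.31 and then 27.9, 6.86 and 21.7 in *daf-16* mutants. The 500 mM values of C09B8.4 spread widely and overlapped between genotypes. In experiment 1, W03F9.4 was at 21.4 and 22.1 FPKM and then 122, 97.9 and 114 FPKM in N2, and at 23.1 and 20.9 and then 107, 116 and 132 in *ssu-1* mutants. In experiment 2, W03F9.4 was at 37.8, 29.0 and 28.9 FPKM and then 151, 143 and 162 FPKM in N2, and at 31.1, 32.7 and 30.4 and then 259.9, 284 and 256 in *daf-16* mutants. For W03F9.4 the *daf-16* libraries at 500 mM were all above N2, at 1.75 times its mean, and the genotypes overlapped elsewhere.

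The largest *daf-16* ratios were those of R11A5.3, 3.52, and *sdz-25* (M116.4), 3.34, whose name stands for a gene that depends on the maternal factor SKN-1 in the zygote. In experiment 1, R11A5.3 was at 3.39 and 7.36 FPKM and then 45.9, 17.5 and 23.9 FPKM in N2, and at 3.48 and 14.9 and then 31.5, 41.6 and 35.8 in *ssu-1* mutants. In experiment 2, R11A5.3 was at 13.8, 27.1 and 4.2 FPKM and then 26.9, 39.0 and 32.4 FPKM in N2, and at 8.21, 6.47 and 3.92 and then 63.2, 33.8 and 58.2 in *daf-16* mutants. Replicate 4 of N2 at 50 mM lay above the lowest N2 library at 500 mM, and without it the ratio of R11A5.3 was 2.20. In experiment 1, *sdz-25* was at 15.9 and 18.9 FPKM and then 53.9, 36.1 and 37.1 FPKM in N2, and at 17.8 and 26.1 and then 49.5, 52.8 and 47.1 in *ssu-1* mutants. In experiment 2, *sdz-25* was at 3.96, 13.2 and 4.34 FPKM and then 20.96, 28.1 and 24.96 FPKM in N2, and at 3.77, 2.62 and 1.87 and then 43.8, 26.0 and 44.0 in *daf-16* mutants. Without replicate 4 its ratio was 2.11. The genotypes overlapped at 500 mM for both genes. Of 20 tested genes named *sdz*, 17 had a *daf-16* change above that of N2, with and without replicate 4, with median ratios of 2.19 and 1.70. In experiment 2 all listed *sdz* genes summed to 381 to 523 FPKM and then 135 to 170 in N2, and to 330 to 380 and then 138 to 223 in *daf-16* mutants.

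The extremes of the *ssu-1* ratio lay among genes of this group too. T07E3.4 had the third-largest, 1.65. In experiment 1, T07E3.4 was at 19.5 and 16.4 FPKM and then 40.9, 38.6 and 39.1 FPKM in N2, and at 13.5 and 13.9 and then 49.2, 50.4 and 52.4 in *ssu-1* mutants, lower at 50 mM and higher at 500 mM without overlap. In experiment 2, T07E3.4 was at 11.6, 12.02 and 11.7 FPKM and then 38.7, 47.1 and 38.2 FPKM in N2, and at 10.47, 10.46 and 10.53 and then 66.8, 55.4 and 60.3 in *daf-16* mutants, again lower and then higher. F14B6.3 had the second-smallest, 0.614. In experiment 1, F14B6.3 was at 2.26 and 4.04 FPKM and then 21.5, 9.61 and 13.5 FPKM in N2, and at 3.26 and 9.99 and then 16.2, 17.1 and 16.9 in *ssu-1* mutants. In experiment 2, F14B6.3 was at 3.03, 6.73 and 2.08 FPKM and then 11.3, 12.99 and 10.4 FPKM in N2, and at 2.85, 1.74 and 1.21 and then 21.6, 10.7 and 20.6 in *daf-16* mutants. Its *ssu-1* 50 mM libraries, at 3.26 and 9.99 FPKM, were far apart, and the genotypes overlapped throughout.

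The rule's limits fell among genes with near values. Just inside were *fbxb-19* and B0281.5, with *ssu-1* changes of 2.01 and 2.02, and Y15E3A.5, with a change of 2.02 in N2 of experiment 2. Just outside were *fbxc-39*, with a change of 2.00 (1.996 before rounding) in N2 of experiment 1, *ttc-36*, with 1.99 in *daf-16* mutants, and *fbxb-74*, with 1.96 in *ssu-1* mutants. In the group that set the limit, *fbxb-19* was at 2.84 and 3.37 FPKM and then 7.49, 7.97 and 9.34, and *fbxb-74* was at 1.87 and 2.78 and then 6.75, 6.56 and 6.28. In its limiting group, B0281.5 was at 12 and 21.8 FPKM and then 35.2, 38.9 and 34.2, and Y15E3A.5 was at 88.7, 84.4 and 63.1 and then 167, 168 and 147 in N2. Outside, *fbxc-39* was at 8.56 and 8.75 FPKM and then 21.4, 17.1 and 19.3 in N2, and *ttc-36* was at 55.4, 60.6 and 59.8 and then 126, 119.7 and 109.9 in *daf-16* mutants. The spread of these libraries was wider than the distance of any of the 6 genes from the limit.

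The change in each mutant was next set beside that of N2 in the same experiment. The rule bounded this ratio from below, so it is given as a description. The *ssu-1* change was above that of N2 for 24 of 56 members, with a median ratio of 0.952 (0.584 to 2.05). Over the 13792 genes tested in both experiments the *ssu-1* change was above that of N2 for 48.8%, with a median ratio of 0.996. The *daf-16* change was above that of N2 for 41 of 56 members, with a median ratio of 1.81 (0.524 to 3.52), against 47.8% and 0.982 over all genes. It was more than 2 times that of N2 for 25 of 56 members, against 3.71% of all genes. That count rested on N2 50 mM replicate 4, without which it was 9, with a median ratio of 1.53. Without replicates 3 and 4 it was 7, with a median ratio of 1.38, and replicate 5 (relative depth 0.693) was then the only N2 50 mM library. The count above N2 was 41 and 39 in these settings. The shares over all genes are not given for these settings, so these counts cannot be set beside the 3.71% and 47.8%.

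By group, the median *daf-16* ratio was 2.49 for the F-box and SKR members and 2.06 for those without a functional group. It was 1.07 for the metabolic enzymes, 0.972 for the osmolyte and inositol members and 0.888 for the regulators, peptides and membrane proteins. Without N2 50 mM replicate 4 these medians were 1.85, 1.61, 0.977, 0.924 and 0.890 in the same order. Of the 25 members with a ratio above 2, 10 were F-box and SKR genes and 12 had no functional group, and the others were *icl-1*, *cht-1* and *clec-266*. Without replicate 4 the F-box and SKR count above 2 was 5 of 11.

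**Figure D4:**
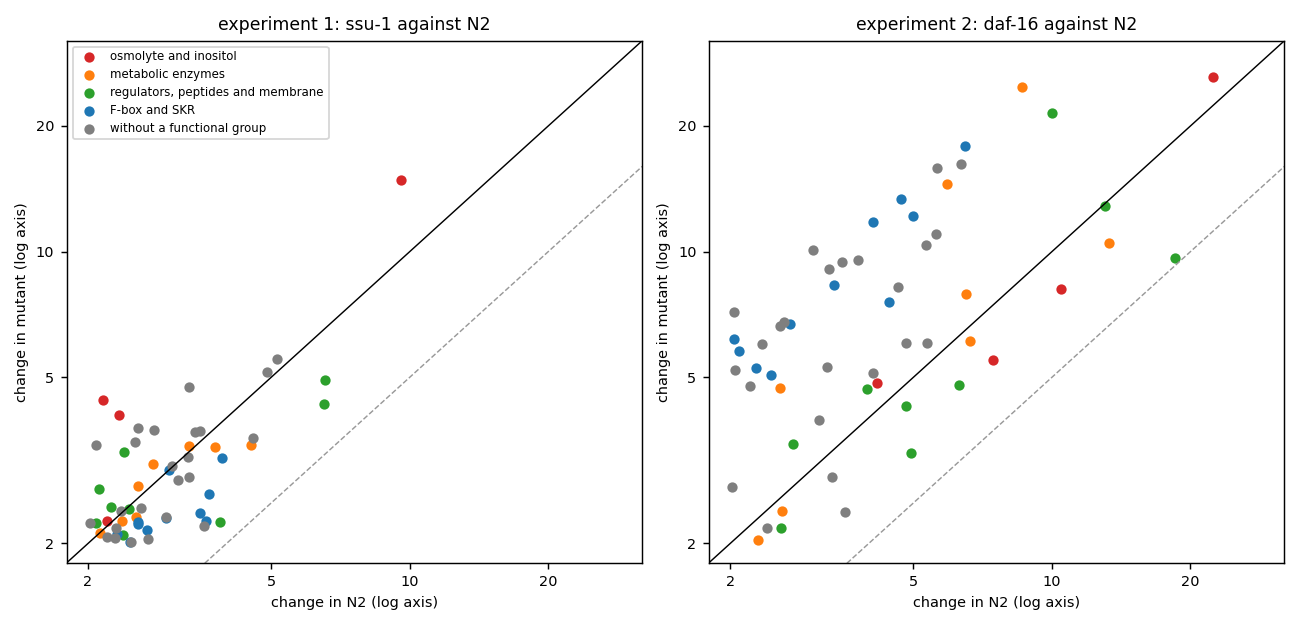
Change in the mutant against change in N2, both on log axes, for the 56 members in experiment 1 (left, *ssu-1*) and experiment 2 (right, *daf-16*), colored by group, with a solid line at equal change and a dashed line at 0.5 of the N2 change, the rule's limit. In experiment 1, 24 of 56 points lie above the solid line, and in experiment 2, 41 of 56 do.

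Levels were compared between genotypes by the overlap of their libraries. The rule used the same 50 and 500 mM values, so these counts are a description. Nothing is read from their distance to the shares of all genes. At 50 mM, 3 members were higher in every *daf-16* library than in every N2 library, against 14.9% of all genes, and 13 were lower, against 5.65%. Without N2 50 mM replicate 4 these counts were 4, against 25.9%, and 15, against 13.5%. At 500 mM, 23 of 56 members were higher in *daf-16* mutants, against 29.2% of all genes, and 11 were lower, against 24.3%. Of the 23, 13 had no functional group, 5 were F-box genes, 3 were enzymes (*cht-1*, *cpt-1* and *asns-2*) and 2 were *str-31* and *clec-266*. In *ssu-1* mutants at 50 mM, 8 members were higher, against 24.0% of all genes, and 7 were lower, against 18.0%, with 2 libraries a genotype. At 500 mM, 10 members were higher in *ssu-1* mutants, against 16.2% of all genes, and 6 were lower, against 9.12%. The 6 were *svct-1*, *dap-1*, *tts-1*, *clec-266*, *nnt-1* and F45E1.4.

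The level averaged over both NaCl concentrations is not itself a value the rule used, but it comes from the same libraries. The rule's limit on the mutant change can bound how far a member lies below N2. The counts of members beside the shares of all genes are therefore not free of the choice. In experiment 1, with groups of 2 and 3 libraries, the level's estimate is also weakly tied to that of the change. The averaged level was tested as mutant minus N2 on log2(FPKM + 1) with limma across all genes, with p-values adjusted by Benjamini-Hochberg and called under 0.05. Differences on this scale understate those of low genes. In experiment 1, 1 of 56 members was higher in *ssu-1* mutants and 2 were lower, against 1.09% and 2.43% of the 13924 genes tested. Without *ssu-1* 50 mM replicate 1 the balance turned, with 6 members higher and 1 lower, against 1.04% and 2.39% of all genes. That setting leaves 1 *ssu-1* library at 50 mM. With every library, the median difference was 0.15 over the members and 0.03 over all genes. In experiment 2, 4 members were higher in *daf-16* mutants and 8 were lower, against 9.73% and 7.36% of 14868 genes. Without N2 50 mM replicate 4, 10 were higher and 8 lower, against 18.5% and 11.1% of all genes, and without replicates 3 and 4, 13 were higher and 9 lower, against 19.8% and 13.8%. The last setting leaves 1 N2 library at 50 mM. With every library, the median difference was -0.02 over the members and 0.06 over all genes.

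In experiment 1 the lower members were F45E1.4 and *hmit-1.1*. In experiment 1, F45E1.4 was at 9.97 and 8.44 FPKM and then 33.2, 34.3 and 33.8 FPKM in N2, and at 4.97 and 5.49 and then 28.8, 27.9 and 31.8 in *ssu-1* mutants, below N2 at both concentrations. The log2 difference of F45E1.4 was -0.45 (standard error 0.06, adjusted p = 0.00155 by limma), and it passed in all 15 alternatives tried. In experiment 2, F45E1.4 was at 12.96, 7.88 and 10.4 FPKM and then 60.5, 59.6 and 62.3 FPKM in N2, and at 8.66, 7.95 and 8.07 and then 88.0, 104 and 95.5 in *daf-16* mutants, above N2 at 500 mM. The log2 difference of *hmit-1.1* was -0.38 (standard error 0.08, adjusted p = 0.0235 by limma). It missed the threshold without N2 50 mM replicate 1 (adjusted p = 0.106 by limma), *ssu-1* 50 mM replicate 1 (0.079), *ssu-1* 500 mM replicate 2 (0.0617) or replicate 3 (0.0624), with no filter on low FPKM (0.0553) and without the trend (0.0549). The higher member was *atz-1*. In experiment 1, *atz-1* was at 93.7 and 102 FPKM and then 220.0, 199.6 and 231 FPKM in N2, and at 111 and 123 and then 235, 258 and 242 in *ssu-1* mutants, above N2 at both. In experiment 2, *atz-1* was at 17.1, 41.8 and 16.6 FPKM and then 133, 158 and 150.2 FPKM in N2, and at 19.2, 11.4 and 8.49 and then 259.9, 180.4 and 227 in *daf-16* mutants. The difference of 0.22 in experiment 1 (standard error 0.05, adjusted p = 0.0451 by limma) passed in 4 of 15 alternatives, with adjusted p between 0.0357 and 0.171. It was lost without each library of experiment 1 other than N2 500 mM replicate 3 and *ssu-1* 50 mM replicate 1.

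In experiment 2 the lowest were *tts-1* and *dap-1*, whose values in every library are given above. Their log2 differences were -1.33 (standard error 0.14, adjusted p = 4.08e-05 by limma) and -0.99 (standard error 0.09, adjusted p = 1.76e-05). Next came *unk-1*. In experiment 1, *unk-1* was at 9.49 and 7.15 FPKM and then 21.6, 16.4 and 20.2 FPKM in N2, and at 5.2 and 8.6 and then 17.9, 16.8 and 18.5 in *ssu-1* mutants. In experiment 2, *unk-1* was at 21.7, 18.4 and 21.6 FPKM and then 62.0, 53.8 and 51.2 FPKM in N2, and at 14.6, 15.1 and 15.6 and then 29.0, 38.8 and 37.5 in *daf-16* mutants. The *daf-16* libraries of *unk-1* were below N2 at both concentrations, by -0.54 on the log2 scale (standard error 0.08, adjusted p = 0.000822 by limma). The other lower members were *icl-1* (-0.52), *mfsd-8.4* (-0.41), *rips-1* (-0.37), *nnt-1* (-0.36) and *dhgd-1* (-0.33). The gene *icl-1* was low at 50 mM, as described, and *nnt-1* was low at both concentrations, with 3.13 to 3.23 FPKM in *daf-16* mutants and 3.93 to 4.52 in N2 at 50 mM. In experiment 1, *rips-1* was at 31.4 and 15.3 FPKM and then 80.9, 38.4 and 65.6 FPKM in N2, and at 25.2 and 52.4 and then 156, 136 and 125 in *ssu-1* mutants. In experiment 2, *rips-1* was at 27.1, 35.0 and 35.2 FPKM and then 123, 127 and 108 FPKM in N2, and at 34.7, 25.2 and 32.4 and then 93.8, 57.6 and 75.3 in *daf-16* mutants. At 500 mM, *rips-1* was thus above N2 in *ssu-1* mutants, at 2.26 times its mean, and below it in *daf-16* mutants, at 0.635 times.

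The higher members in *daf-16* mutants were W03F9.4, *asns-2*, F47B8.10 and *cpt-1*. The log2 differences were 0.40 for W03F9.4 (standard error 0.07, adjusted p = 0.00244 by limma), 0.36 for *asns-2* (0.11, 0.0409), 0.29 for F47B8.10 (0.07, 0.0193) and 0.25 for *cpt-1* (0.06, 0.013). In experiment 1, F47B8.10 was at 4.54 and 5.23 FPKM and then 15.97, 12.48 and 13.3 FPKM in N2, and at 5.77 and 5.76 and then 17.4, 13.9 and 17.2 in *ssu-1* mutants. In experiment 2, F47B8.10 was at 4.56, 5.74 and 5.56 FPKM and then 21.03, 22.4 and 19.4 FPKM in N2, and at 7.76, 7.44 and 6.57 and then 23.02, 23.4 and 25.1 in *daf-16* mutants. The *daf-16* libraries of F47B8.10 were above N2 at both concentrations. Among the 12 members called, *tts-1*, *dap-1*, *unk-1*, *icl-1*, *nnt-1*, *dhgd-1*, W03F9.4 and *cpt-1* passed in all 17 alternatives with no replicate block.

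The call did not hold throughout for 4 members. The gene *rips-1* passed in 3 of these 17 alternatives, with adjusted p up to 0.109 by limma. It was kept only without N2 50 mM replicate 3, without *daf-16* 500 mM replicate 1 and without N2 50 mM replicates 3 and 4. The gene *asns-2* passed in 6 of 17, with adjusted p up to 0.106, and was lost without any 1 of the N2 500 mM, *daf-16* 50 mM or *daf-16* 500 mM libraries. F47B8.10 was lost without N2 500 mM replicate 6 (adjusted p = 0.0513 by limma), *daf-16* 50 mM replicate 1 (0.0547) or *daf-16* 500 mM replicate 3 (0.0571). The gene *mfsd-8.4* was lost without N2 500 mM replicate 4 (adjusted p = 0.0635 by limma), *daf-16* 50 mM replicate 2 (0.0537) or *daf-16* 500 mM replicate 1 (0.0528), and with 0.1 in place of 1 added on the log scale (0.0729). With the replicate block, all members called in experiment 2 other than *tts-1* and *dap-1* missed the threshold. The difference was then smaller for W03F9.4 (0.06, adjusted p = 0.729 by limma), *cpt-1* (0.09, 0.695) and *rips-1* (-0.06, 0.796). It was larger for *icl-1* (-0.78, 0.0702) and *asns-2* (0.79, 0.0771). No difference changed sign in any alternative.

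**Figure D5:**
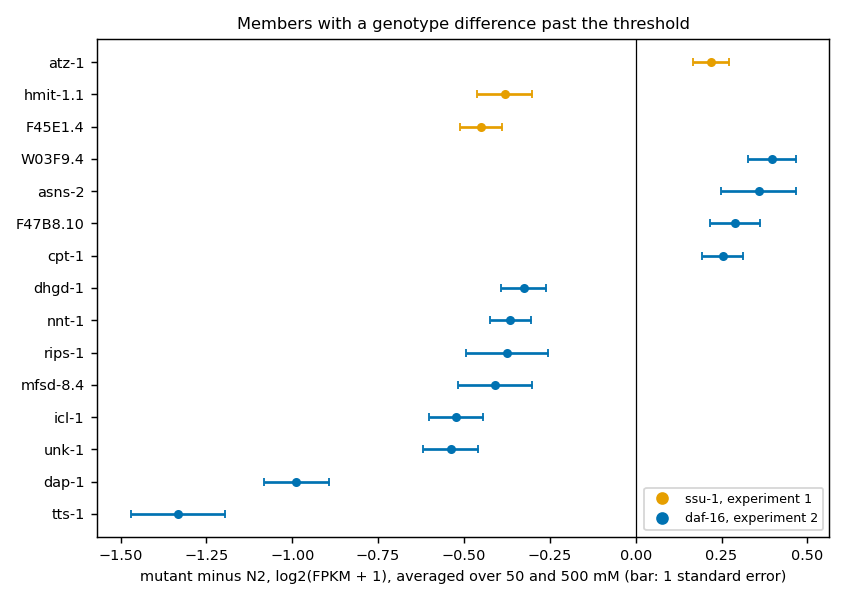
Mutant minus N2 on the log2(FPKM + 1) scale, averaged over 50 and 500 mM NaCl, with bars of 1 standard error from limma, for the 3 members past the threshold in experiment 1 and the 12 in experiment 2. The *daf-16* differences run from -1.33 (*tts-1*) to 0.40 (W03F9.4), and those of *ssu-1* from -0.45 (F45E1.4) to 0.22 (*atz-1*).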

How the data were processed

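The authors aligned paired-end reads to the ce10 assembly with RSEM 1.2.15 and Bowtie 1.0.1, with WormBase gene identifiers, and deposited FPKM per gene and library for 22 libraries. Of 45461 rows, 1 without a gene name was left out. Mapped fragments are not in the files, so counting error is unknown and relative depth was estimated from the spacing of low FPKM. FPKM scales each library to its own total, so a shift of many genes together would move all others.

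The members and gene lists were chosen with earlier results of these data known, and role groups were assigned after the values were seen. Since the rule used the 500 mM against 50 mM contrasts, these carry no test. The genotype difference averaged over NaCl was tested with limma 3.58.1 in R 4.3.3 (eBayes with trend) on log2(FPKM + 1), one fit of 4 groups per experiment, over genes that reached 1 FPKM in 2 or more libraries, with Benjamini-Hochberg adjustment over all of them. On simulated libraries with a 2-fold genotype difference in 200 genes, the test recovered 200 in each experiment, with 9 and 8 false calls. The simulated spread followed the same rule for every gene. Differences called here other than those of *tts-1* and *dap-1* were smaller than 2-fold. The simulation cannot say how well such differences are found.

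Except for *nnt-1* of the glyoxylate list, values in every library are given for the 6 members ranked highest by the smaller of their 2 N2 changes and the members in the osmolyte, inositol, O-GlcNAc, glyoxylate, chitin, asparagine and transcription factor groups. They are also given for the 3 largest and 3 smallest mutant to N2 ratios per mutant, the 3 largest genotype differences that passed per direction and experiment, and, in the group that set the limit, the 3 genes on either side of it. The values of *fbxb-41*, outside this choice, were picked after they were seen. Symbols, chromosomes and neighboring genes came from a RefSeq table of WBcel235, in which 44079 identifiers matched. It is another assembly than ce10, so no coordinates are given, and promoter sequences were not analysed here. Plots used Python 3.11.15 and matplotlib 3.10.9.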

Additional observations from a re-analysis of the deposited data

How the results depend on the processing

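The number of members depended on the form of the change and on single libraries. With 0.1 added to both means, 207 genes met the rule, and with one library left out between 37 (without *ssu-1* 50 mM replicate 1) and 72 (without *ssu-1* 50 mM replicate 2) did. Medians, rescaled FPKM and a mutant change of at least 0.75 of that of N2 gave 56, 65 and 47. The number of members with a *daf-16* change above 2 times that of N2, 25, was between 9 (without N2 50 mM replicate 4) and 26 with one library left out, and 7 without N2 50 mM replicates 3 and 4, a setting chosen after seeing the data.

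The number of members with a genotype difference in experiment 1, 3 by limma, was 1 with no filter on low FPKM, 1 without the trend and between 1 and 7 with one library left out (7, 6 higher and 1 lower, without *ssu-1* 50 mM replicate 1). In experiment 2 it was 12, between 9 and 18 with one library left out (18, 10 higher and 8 lower, without N2 50 mM replicate 4), 22 without N2 50 mM replicates 3 and 4 (13 higher, 9 lower), and 10 to 12 under the other settings with no replicate block. Single-gene differences passed in 202 of 261 alternatives over 15 genes, and 0 changed sign. The cause of these shifts was not tested. Over all genes in experiment 1, 0.556% were higher and 1.5% lower with no filter, and 0.768% and 2.13% without the trend. In experiment 2 with one library left out, 4.58% to 18.5% of all genes were higher and 5.06% to 11.1% lower. Under the other settings with no replicate block, 5.8% to 10.7% were higher and 4.74% to 7.24% lower. A single library remains in a group without N2 50 mM replicates 3 and 4, and without any 50 mM library of experiment 1.

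With the replicate number as a block, 2 members passed in experiment 1, both lower, against 0.682% higher and 2.36% lower over all genes. In experiment 2, 2 passed (*tts-1* and *dap-1*, both lower), against 0.659% and 1.45% over all genes. With no block the shares over all genes were 9.73% and 7.36%. The block in experiment 2 was a setting chosen after seeing the data. There replicate 3 alone ties the genotypes and 3 residual degrees of freedom remain. The deviations of same-numbered libraries correlated with r between -0.40 and 0.252 over 13 pairs of experiment 1, over 0.1 in 3. Over 7 pairs of experiment 2, r was between -0.285 and 0.28, over 0.1 in 3. In experiments 1 and 2, 3 of 10 and 4 of 12 libraries correlated best with one of their own number. These values cannot decide whether the numbers pair the samples. In groups of 2 libraries in experiment 1 the deviations are mirror images, and replicate 3 alone ties the genotypes in experiment 2. Low FPKM limit the change of genes near 1 FPKM, and the FPKM of near-identical neighbors are uncertain.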
